A study of Mus musculus with 12 samples.

Results

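The genes described here encode the hypoxia-inducible factors (HIFs) and the enzymes that read oxygen for them. The set holds 10 of the 55471 genes in the count table, taken by gene symbol: the alpha subunits Epas1, Hif1a and Hif3a, the partner subunits Arnt and Arnt2, the prolyl hydroxylases Egln1, Egln2 and Egln3, the asparaginyl hydroxylase Hif1an, and Vhl. The set was selected on the fold change of Epas1, which was among the largest rises of the series, and the other 9 genes were added as its family and pathway. The values of Epas1 are therefore given as a description without a p-value, and nothing is read from how many of the 10 genes passed the test.

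Primary hippocampal neurons of wild-type mice (CD1 embryos of mixed-sex litters) received a control gapmer or a *Neuid* gapmer in lipid nanoparticles at day in vitro (DIV) 7, and total RNA was taken at DIV 10. A gapmer is an antisense oligonucleotide that directs RNase H to its target RNA, here the long noncoding RNA *Neuid* (Gm10419, ENSMUSG00000072769). Each group has 6 RNA-seq libraries, called control and *Neuid* KD. A single targeting sequence was used, so effects of the knockdown and of that oligonucleotide cannot be told apart, and no label says which libraries came from separate cultures, so p-values measure the spread between these libraries.

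HIF is a pair of proteins, an oxygen-labile alpha subunit and a stable ARNT subunit. When oxygen is present, EGLN enzymes hydroxylate prolines of the alpha subunit, VHL binds the hydroxylated form as part of a ubiquitin ligase, and the subunit is degraded. HIF1AN, also called FIH, hydroxylates an asparagine and blocks the binding of coactivators. Most of this control acts on protein, whereas the libraries measure RNA. HIF1A is found in most cells, while EPAS1 (HIF2A) is known from endothelial cells, pericytes and astrocytes, and HIF3A has forms that restrain the other alpha subunits.

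The prolines that EGLN enzymes modify lie in LXXLAP motifs, and the coding stretches of these motifs are shown because they are what ties the 3 alpha subunits to the hydroxylases below. They were read from the GENCODE transcripts with the longest coding sequence (GRCm38, which is mm10), 5′ to 3′ on the coding strand, with the codon of the last proline in capitals. Epas1 and Hif1a each hold 2 such motifs and Hif3a holds 1, and each stretch lies within 1 exon.
Epas1, exon 9, chr17:86824570-86824587, plus strand, proline 405: ctggcccagttggccCCC
Epas1, exon 12, chr17:86827513-86827530, plus strand, proline 530: ttggagaccttggcaCCC
Hif1a, exon 9, chr12:73939689-73939706, plus strand, proline 402: ctcactctgctggctCCA
Hif1a, exon 12, chr12:73941976-73941993, plus strand, proline 577: ttggagatgctggctCCC
Hif3a, exon 12, chr7:17041205-17041222, minus strand, proline 489: ttggagatgctggccCCC
All 3 genes thus encode the motif in their longest coding transcript, whose proteins have 874 (Epas1), 836 (Hif1a) and 664 (Hif3a) residues. Counts were per gene, so transcripts with and without these exons were not separated.

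Between 11152556 and 30914714 reads were counted per library, and 19578 genes passed the filter on low counts, with all 10 genes of the set among them. *Neuid* ran from 26.0 to 31.0 CPM (read counts scaled to library size) in control and from 6.32 to 9.55 CPM after *Neuid* KD, with no overlap (log2 fold change -1.81, with a standard error, SE, of 0.0845 and an adjusted p of 1.32e-10 by the quasi-likelihood test of edgeR). The two-sided exact permutation test of its CPM gave p = 0.002165, and none of the 924 arrangements can give less. Over all tested genes 1235 were upregulated and 473 downregulated at an adjusted p under 0.05, against 1397 and 915 with DESeq2 and 1049 and 1259 with upper-quartile normalization. The libraries also differed in background reads: chemosensory receptor genes, which these cells are not known to use, summed to between 26.7 and 667 CPM in control and 27.1 and 616 CPM after *Neuid* KD. In 7 libraries (4 control, 3 *Neuid* KD) the sum was at least 100 CPM, and results are also given within each side of that level where they differ.

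Epas1 (ENSMUSG00000024140, chr17:86753700-86833410, plus strand) encodes the alpha subunit HIF2A. It was at 8.41, 8.93, 8.57, 7.70, 6.01 and 6.74 CPM in control replicates 1 to 6. In *Neuid* KD replicates 1 to 6 it was at 36.9, 39.3, 40.2, 42.6, 35.7 and 42.4 CPM. Every *Neuid* KD library lay far above every control library, and the libraries of each group stayed close together. The mean was 7.73 ± 1.14 CPM in control and 39.5 ± 2.82 CPM after *Neuid* KD (SD, n = 6 each), a 5.11-fold difference, and the log2 fold change was 2.35 (SE 0.0847). This was the fold change at rank 5 among the 15205 tested genes that averaged 1 CPM or more, which is what the set was built on. It was 2.28 on this scale within the libraries of higher background and 2.42 within those of lower background, and it lay between 2.29 and 2.39 with any 1 library left out.

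**Figure D1:**
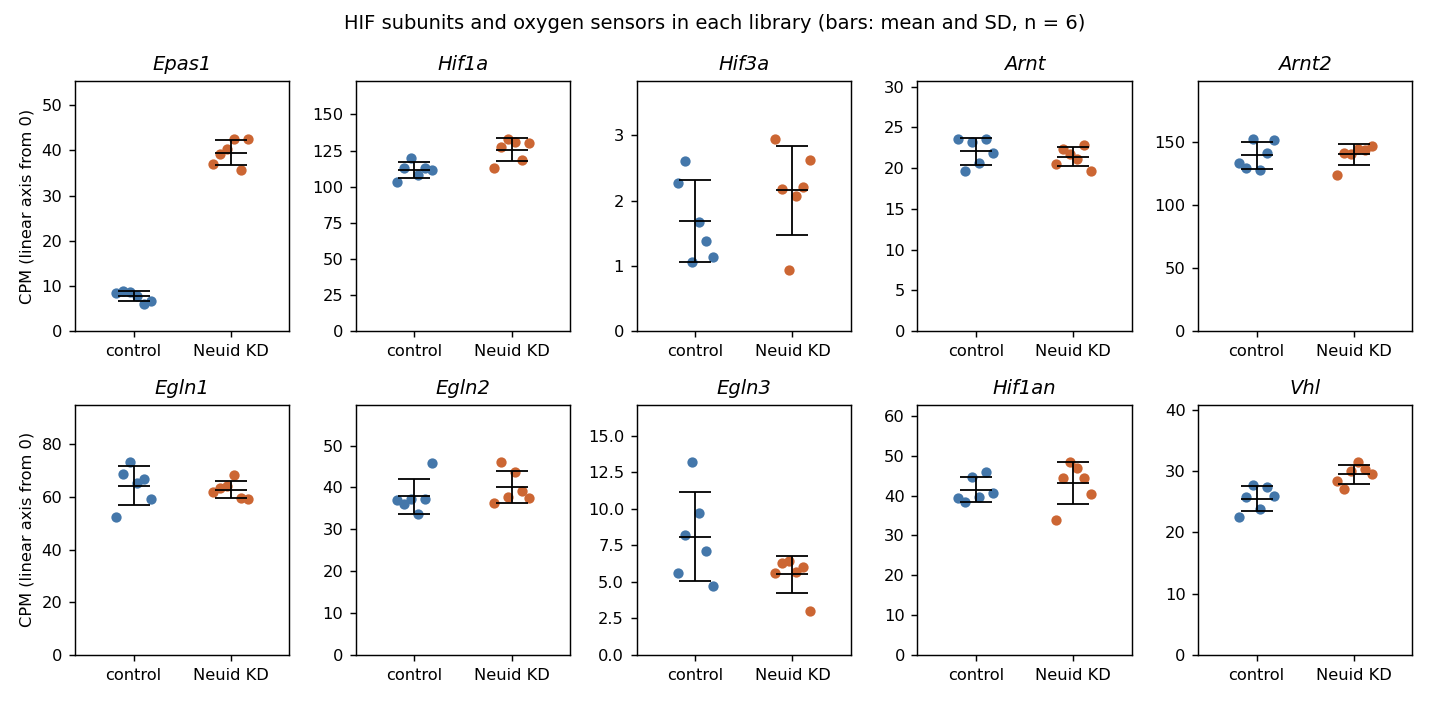
CPM of each gene in each library, 1 panel per gene, on linear axes from 0. Points are libraries in the order of their replicate numbers, bars are the mean and SD of 6. Epas1 has groups far apart (at most 8.93 against at least 35.7 CPM). In the other 9 panels the groups overlap.

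Neither of the other alpha subunits passed the test. Hif1a (ENSMUSG00000021109, chr12:73901375-73947530, plus strand) had a lowest, median and highest level of 103, 112 and 120 CPM in control libraries. In *Neuid* KD libraries these were 113, 129 and 133 CPM. The groups overlapped at their edges, with 4 of the *Neuid* KD libraries above the highest control library. Its log2 fold change was 0.17 (SE 0.0524, adjusted p = 0.0511), which missed the threshold, with a 95% interval from 0.07 to 0.28. It passed in 7 of 22 alternatives. Among these were DESeq2 (adjusted p = 0.023), 1 factor of unwanted variation estimated by RUVs (adjusted p = 0.00692), the background as a covariate (adjusted p = 0.0064), and the fits without control replicate 3 or *Neuid* KD replicate 1 (adjusted p = 0.0485 and 0.0325). It did not pass in edgeR's test within the libraries of higher background (adjusted p = 0.691) or of lower background (adjusted p = 0.0609). Exons of Hif1a overlap Gm49321 on the same strand and Gm15283 on the opposite strand, and the strand setting of the counting is not given in the sources used here.

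Hif3a (ENSMUSG00000004328, chr7:17031507-17062427, minus strand) was the least abundant gene of the set. It had between 20 and 61 reads per library. Its lowest, median and highest levels were 1.07, 1.53 and 2.61 CPM in control and 0.94, 2.19 and 2.95 CPM after *Neuid* KD. These ranges overlapped over most of their width, and the log2 fold change of 0.35 (SE 0.301, adjusted p = 0.658) had an interval from -0.24 to 0.94. Per kb of exon, Hif3a lay between 2.54 and 7.07 times above the chemosensory receptor genes in the 7 libraries of higher background and between 27.0 and 43.5 times above them in the other 5. The part of background reads in its level was not tested.

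**Figure D2:**
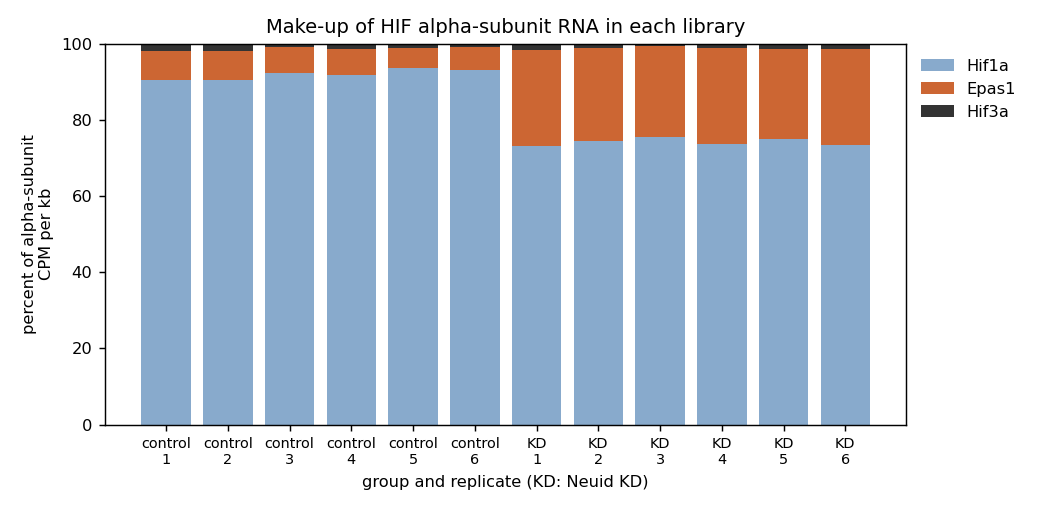
Stacked bars give the share of each alpha subunit in the summed CPM per kb of exon of Hif1a, Epas1 and Hif3a, 1 bar per library, from 0 to 100 percent. Epas1 takes 5.25 to 7.79 percent in control and 23.8 to 25.3 percent in Neuid KD libraries.

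Scaled to exon length, Hif1a was the main alpha subunit RNA in every library. It made up 90.5% to 93.7% of the alpha sum in control libraries and 73.1% to 75.5% in *Neuid* KD libraries, and Hif3a made up between 0.466% and 1.84% over all libraries. The level of Hif1a per kb was 13.9 ± 2.38 times that of Epas1 in control and 3.02 ± 0.122 times in *Neuid* KD libraries (SD, n = 6 each). These shares restate the difference of Epas1 that the set was chosen for, and carry no test.

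The ARNT subunits, which pair with every alpha subunit, did not pass the test. Arnt2 (ENSMUSG00000015709, chr7:84246278-84410176, minus strand), the form known from neurons, had a lowest, median and highest level of 128, 137 and 152 CPM in control and 124, 142 and 146 CPM after *Neuid* KD. The *Neuid* KD range lay almost wholly inside the control range, with replicate 1 below it. Its log2 fold change was 0.01 (SE 0.0581, adjusted p = 0.965, interval from -0.11 to 0.12), and its sign turned under several alternatives. Arnt (ENSMUSG00000015522, chr3:95434388-95497240, plus strand), the form found in most tissues, went from 22.1 ± 1.65 to 21.4 ± 1.18 CPM (SD, n = 6 each) with fully overlapping ranges (log2 fold change -0.04, SE 0.0593, adjusted p = 0.81). Arnt2 held between 85.5% and 88.6% of the ARNT level per kb in all 12 libraries. The summed ARNT level per kb was 1.02 ± 0.0696 times the summed alpha level in control and 0.728 ± 0.0361 times in *Neuid* KD libraries (SD, n = 6 each), a ratio that again moves with Epas1. Exons of Arnt2 overlap those of Gm30873 on the opposite strand.

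None of the 3 prolyl hydroxylase genes passed the test. Egln1 (ENSMUSG00000031987, chr8:124908587-124949324, minus strand) encodes PHD2, known as the main oxygen sensor of this family, and went from 64.2 ± 7.42 to 62.8 ± 3.39 CPM (SD, n = 6 each; log2 fold change -0.03, SE 0.0702, adjusted p = 0.885). Its interval ran from -0.17 to 0.11. Egln2 (ENSMUSG00000058709, chr7:27158658-27166802, minus strand), which encodes PHD1 and whose exons overlap Cyp2t4 on the opposite strand, went from 37.9 ± 4.16 to 40.1 ± 3.84 CPM (SD, n = 6 each; log2 fold change 0.09, SE 0.0747, adjusted p = 0.668). For these 2 genes, all libraries of one group lay within or close to the range of the other.

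Egln3 (ENSMUSG00000035105, chr12:54178981-54203860, minus strand) encodes PHD3, whose gene is itself a well known HIF target. It was at 5.58, 8.24, 13.2, 9.70, 7.12 and 4.75 CPM in control replicates 1 to 6. In *Neuid* KD replicates 1 to 6 it was at 5.64, 6.32, 6.46, 5.70, 5.99 and 2.98 CPM. The control libraries were spread widely (37.8% of their mean, as SD) and 2 of them lay among the *Neuid* KD libraries, of which 5 were close together and replicate 6 was lower. Its log2 fold change was -0.56 (SE 0.222, adjusted p = 0.159). It passed the threshold with 1 RUVs factor (-0.61, adjusted p = 0.00439), with the background as a covariate (-0.60, adjusted p = 0.00528) and within the libraries of lower background (-0.77, adjusted p = 0.00383). Without control replicate 3, the library at 13.2 CPM, the log2 fold change was -0.35 (adjusted p = 0.403), and none of the 12 fits without 1 library called it (-0.69 to -0.35). Egln3 took between 3.61% and 12.8% of the summed Egln level per kb over all libraries, and Egln1 between 47.5% and 54.5%.

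Of the remaining genes of the oxygen pathway, Hif1an did not pass the test and Vhl did. Hif1an (ENSMUSG00000036450, chr19:44562850-44576274, plus strand) went from 41.4 ± 3.14 to 43.1 ± 5.26 CPM (SD, n = 6 each), with overlapping ranges (log2 fold change 0.06, SE 0.0749, adjusted p = 0.777). Vhl (ENSMUSG00000033933, chr6:113623959-113631633, plus strand) had a lowest, median and highest level of 22.5, 25.8 and 27.7 CPM in control libraries and of 27.0, 29.7 and 31.4 CPM after *Neuid* KD. Of the *Neuid* KD libraries, 5 lay above every control library and replicate 2 fell among them. The log2 fold change of Vhl was 0.21 (SE 0.0586, adjusted p = 0.0334), a 1.16-fold difference that passed the threshold. The call was kept in 6 of 22 alternatives. These included the DESeq2 Wald test (adjusted p = 0.0207) and edgeR's test with 1 RUVs factor (0.0162), the background covariate (0.0144) or the replicate block (0.0397). In edgeR's test it was lost with the size factors of DESeq2 (adjusted p = 0.06), within the libraries of lower background (log2 fold change 0.07, adjusted p = 0.716) and within those of higher background (0.28, adjusted p = 0.144). It was also lost when any 1 library other than control replicates 3 and 5 was left out (adjusted p between 0.0723 and 0.185).

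Epas1 is left out of these counts, since the set was chosen on it. Of the other 9 genes, Vhl alone passed as higher in *Neuid* KD, 1 of 9, where 6.31% of all tested genes did. DESeq2 called 2 of the 9 higher, Hif1a and Vhl. None passed as lower, where 2.42% of all tested genes did. For the count of 0, Egln3 had an unadjusted p under 0.05 in edgeR's test, and DESeq2 called none lower. None of the 9 had every *Neuid* KD library above every control library, as had 4.13% of all tested genes. None had every library below, as had 1.57%. The median log2 fold change of the 9 genes other than Epas1 was 0.06, and that of all tested genes was -0.03.

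**Figure D3:**
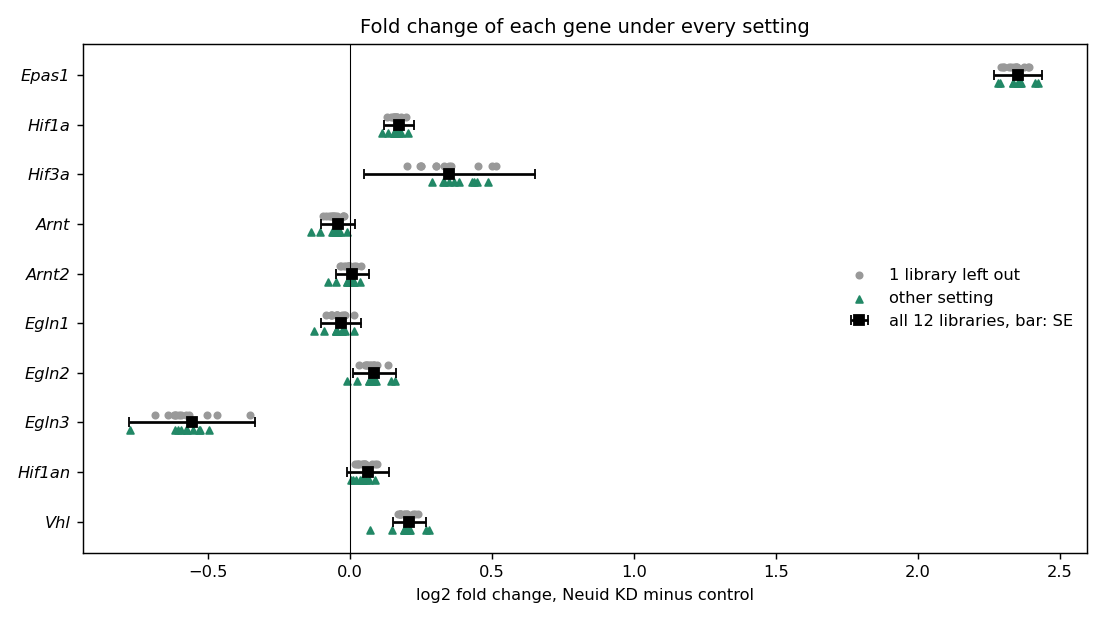
Log2 fold change of each gene, Neuid KD minus control. Squares are the fit to all 12 libraries with its standard error, grey points leave out 1 library each and triangles are the other settings. Epas1 stays between 2.28 and 2.42, Egln3 between -0.77 and -0.35, and Arnt2, Egln1 and Egln2 fall on either side of 0.

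Ordered by level per kb of exon in control libraries, Hif1a came first with a median of 19.0 CPM per kb (range 17.5 to 20.3). Egln1 (18.4), Arnt2 (17.8), Egln2 (13.3), Vhl (8.60), Hif1an (6.09), Egln3 (2.89), Arnt (2.82), Epas1 (1.44) and Hif3a (0.228) followed, all as median CPM per kb. The ranges of Hif1a and Egln1, of Egln1 and Arnt2, and of Egln3 and Arnt overlapped, so their order is not resolved, while all other neighbours had separate ranges. In *Neuid* KD libraries the median of Epas1 was 7.11 CPM per kb (range 6.39 to 7.61), which moved it from rank 9 to rank 6. There it overlapped Hif1an (5.14 to 7.32) and lay below Vhl (9.02 to 10.5). With the longest transcript as the length, Arnt2 came before Egln1 and Arnt before Egln3, and the other ranks in control libraries stayed.

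**Figure D4:**
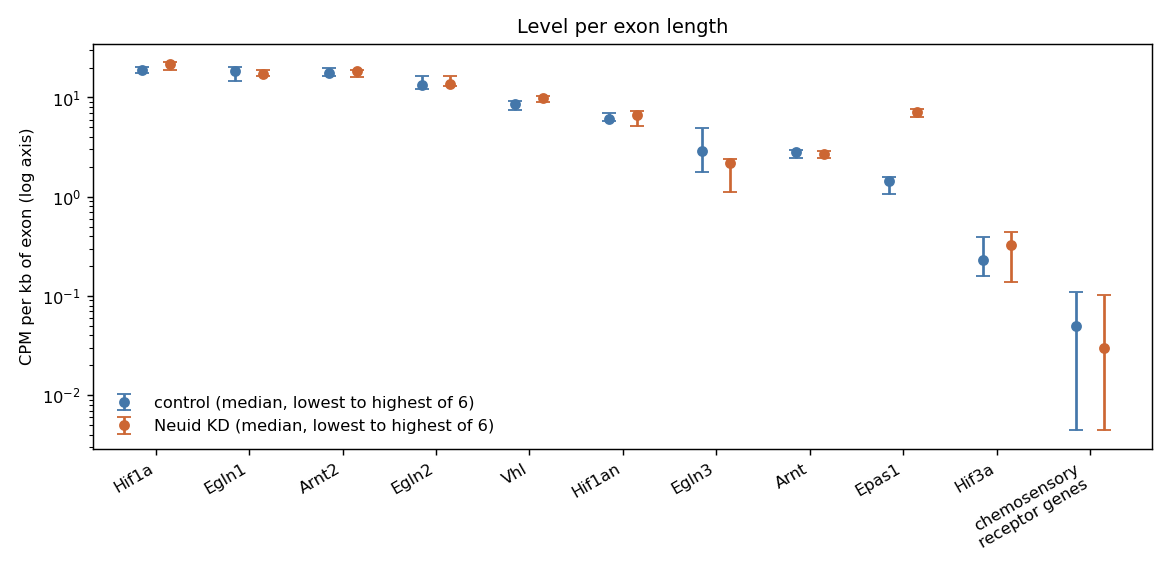
Median CPM per kb of exon, with lowest and highest of 6 libraries, on a log axis, in the order of the control medians. The chemosensory receptor genes at the right give the background per kb (0.0044 to 0.111 in control libraries). Epas1 moves from below Arnt to the level of Hif1an, and Hif3a lies nearest to the background.

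The genes whose profile over the 12 libraries was most like that of Epas1 were Gja1, Npas3, Apoe, Pla2g7 and Acsbg1. Likeness was measured as the root mean square difference of log2 CPM after each gene was centred on its mean, and these 5 differed from Epas1 by 0.171 to 0.214, where the median over the 15195 other genes was 1.20. The other genes of the set differed from Epas1 by 1.09 (Vhl) to 1.49 (Egln3). This measure holds the group difference of Epas1 that chose the set. Any gene with little group difference therefore lies far from Epas1, and nothing further is read from these values. Gja1, the gap junction protein connexin 43 of astrocytes, went from 27.5 ± 2.53 to 133 ± 5.82 CPM (SD, n = 6 each). Apoe, a lipid carrier made by astrocytes, went from 245 ± 25.2 to 1189 ± 113 CPM (SD, n = 6 each). Pla2g7 is a secreted phospholipase and Acsbg1 an acyl-CoA synthetase, and their mean levels in *Neuid* KD were 5.83-fold and 4.18-fold those in control. All 5 rose with an adjusted p of at most 2.92e-12, as choosing genes for their likeness to Epas1 entails.

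Npas3, one of those 5, is also a structural relative: it belongs to the bHLH-PAS transcription factors, the family of the HIF and ARNT subunits, and is known as a regulator of neural and astroglial development. It was at a lowest, median and highest level of 9.88, 11.3 and 13.7 CPM in control libraries and of 49.0, 55.7 and 58.9 CPM after *Neuid* KD. The groups were far apart (log2 fold change 2.26, SE 0.0775, adjusted p = 2.92e-12). Of the 11 tested bHLH-PAS genes outside the set, 1 rose (Npas3) and 1 fell (Ahrr), where 6.31% of all tested genes rose and 2.42% fell. Ahrr, the repressor of the aryl hydrocarbon receptor, went from 7.81 ± 1.07 to 5.52 ± 0.955 CPM (SD, n = 6 each). Its log2 fold change was -0.50 (SE 0.124, adjusted p = 0.0145 by edgeR). The fall of Ahrr did not pass within the libraries of higher background (-0.47, adjusted p = 0.0948), within those of lower background (-0.48, adjusted p = 0.0957) or with GC and length offsets (-0.50, adjusted p = 0.0504). The median of the list was -0.18. The 15 tested genes of the VHL ubiquitin ligase and of HIF cofactors and stabilisers, such as Cul2, Eloc, Ep300 and Hsp90ab1, held 0 calls by edgeR, with log2 fold changes from -0.23 to 0.19 and a median of 0.03, and 2 of them, Ncoa1 and Cited2, had an unadjusted p under 0.05, of which DESeq2 called Cited2 lower.

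Taken as a list, genes known to be activated by HIF did not rise with Epas1, although 2 of them did. These are bulk values, and whether targets changed in the cells that hold Epas1 was not tested. Of 52 tested targets, 9 fell and 2 rose, against 2.42% and 6.31% of all tested genes, and 40 had a negative log2 fold change, with a median of -0.18. Over all tested genes 10880 of 19578 were negative. The lists were chosen with earlier results of these data known, so these shares are a description. Of the glycolytic targets, 2 of 19 fell and 1 rose. Hk2, the inducible hexokinase, fell from 18.3 ± 6.72 to 8.75 ± 1.97 CPM (SD, n = 6 each; log2 fold change -1.08, SE 0.225, adjusted p = 0.00442). Slc16a3, the lactate exporter MCT4, fell from 4.14 ± 1.21 to 1.22 ± 0.742 CPM (SD, n = 6 each; log2 fold change -1.78, SE 0.345, adjusted p = 0.00226). In these 2 genes the groups overlapped by a few libraries. Aldoc, an aldolase that is also an astrocyte gene, rose from 121 ± 6.17 to 169 ± 12.5 CPM without overlap (SD, n = 6 each; log2 fold change 0.47, SE 0.0552, adjusted p = 1.14e-05), a call that was lost with GC and length offsets (0.53, adjusted p = 0.265).

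Of the 24 other tested targets, 6 fell and 0 rose by edgeR, with a median log2 fold change of -0.24. DESeq2 also called 0 higher, and Pdgfb, at 0.13, was the 1 positive gene with an unadjusted p under 0.05. Car12, a membrane carbonic anhydrase that acts on pH, fell from 10.0 ± 1.55 to 5.36 ± 1.25 CPM (SD, n = 6 each; log2 fold change -0.92, SE 0.141, adjusted p = 0.000248). P4ha2, a collagen prolyl hydroxylase subunit, fell from 13.4 ± 1.72 to 8.93 ± 0.73 CPM (SD, n = 6 each; log2 fold change -0.60, SE 0.0881, adjusted p = 0.000161). Ankrd37 fell from 3.23 ± 0.895 to 1.86 ± 0.499 CPM (SD, n = 6 each; log2 fold change -0.79, SE 0.234, adjusted p = 0.0456), a call that 9 of the 12 fits without 1 library did not keep (adjusted p up to 0.121). The mitophagy receptor gene Bnip3 (log2 fold change -0.57), Ndrg1 (-0.49) and Stc2 (-0.43) were the other 3, named here after their values were seen to complete the count. In Car12, P4ha2, Bnip3, Ndrg1 and Stc2 every *Neuid* KD library lay below every control library. Vegfa, the vascular growth factor gene, did not pass (92.7 ± 19.6 against 81.2 ± 14.5 CPM, SD, n = 6 each; log2 fold change -0.19, adjusted p = 0.56), and it too is named after its value was seen.

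The number of targets that fell depended on the settings. It was 15 with DESeq2, 21 with 1 RUVs factor, 21 with the background as a covariate and 14 without *Neuid* KD replicate 1. Within the libraries of higher background it was 7, and within those of lower background (2 control against 3 *Neuid* KD) it was 25. The number of targets that rose was between 1 and 3. Falls among all tested genes moved too: 473 of 19578 by edgeR's test, 915 with DESeq2, 988 with RUVs and 987 with the covariate. They were 205 of 23644 within higher background, 799 of 17665 within lower background, and 780 of 19784 without *Neuid* KD replicate 1. Gapdh, Pgk1 and Pgam1, glycolytic genes that cells use heavily, were at means of only 1.27 to 4.51 CPM after *Neuid* KD. They have many near-identical pseudogenes, whose effect on these counts was not tested, so their values are uncertain. These genes stay in the counts of targets.

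**Figure D5:**
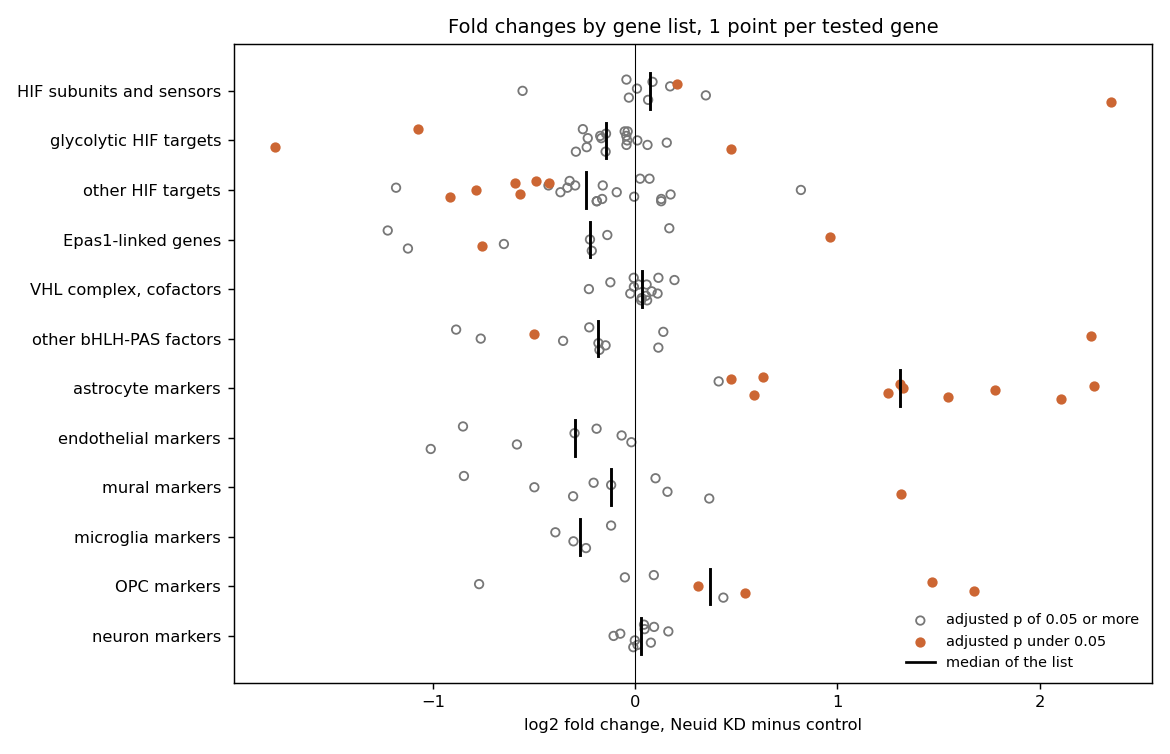
Each point is a tested gene, placed at its log2 fold change (Neuid KD minus control) in the row of its list. Filled points have an adjusted p under 0.05 and the upright bar is the median of the list. Most points of the 3 HIF target rows lie left of 0, the cofactors lie close to 0, and the astrocyte markers lie to the right, as Epas1 and Npas3 do.

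Of 9 tested genes linked to EPAS1 in other tissues, such as those of iron handling and of vessels, 1 rose and 1 fell, both of them genes of iron handling. Cybrd1, a ferric reductase, rose from 12.2 ± 1.03 to 24.0 ± 2.19 CPM (SD, n = 6 each; log2 fold change 0.96, SE 0.072, adjusted p = 4.87e-08). Slc40a1, the iron exporter ferroportin, fell from 5.39 ± 0.811 to 3.21 ± 0.543 CPM (SD, n = 6 each; log2 fold change -0.76, SE 0.141, adjusted p = 0.00161). In each of these genes the groups did not overlap, although the fall of Slc40a1 did not pass within the libraries of higher background (adjusted p = 0.0884). The other 7 were not called, and the median log2 fold change was -0.22. Epo, the hormone gene best known as an EPAS1 target, had at most 4 reads in a library and was not tested.

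HIF binds the hypoxia response element, whose core is ACGTG or GCGTG. Promoters (250 bases before to 50 after the start) were taken from RefSeq on GRCm38.p6, matched by symbol, and searched for these letters on either strand, where ACGTG reads CACGT and GCGTG reads CACGC on the other strand, and a palindromic CACGTG counts for ACGTG from each side. ACGTG was found in 21.8% and either core in 46.7% of the 27025 genes with a promoter. A promoter was matched for 9 of the 10 genes of the set, all but Epas1, and 6 of them held a core. Arnt2, Hif1an and Vhl held none in this window. Of the 38 tested targets with a promoter, 23 held ACGTG and 34 held either core. Among the targets that fell, 7 had a promoter and 5 of these held ACGTG (Hk2, Slc16a3, Bnip3, Ankrd37 and P4ha2), a count too small to compare with the other targets. A match is a description of letters and not a bound site. Both targets that rose held a core as well (Aldoc both forms, Cybrd1 GCGTG), and Car12, which fell, held none. These stretches are shown to place the core beside the genes that fell and held ACGTG. Egln3, the gene of the set with the largest negative log2 fold change, is shown too, although it did not pass the test. They are in gene direction with the core in capitals.
Egln3, 229 bases before the start, chr12:54204087-54204115, minus strand: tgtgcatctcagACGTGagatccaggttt
Hk2, 52 bases before the start, chr6:82774490-82774518, minus strand: aatgagcacatcCACGTcactgtccgggg
Slc16a3, 27 bases before the start, chr11:120949028-120949056, plus strand: caggcagcggtgACGTGcgcgggggacgt
Bnip3, 108 bases before the start, chr7:138909598-138909626, minus strand: gcgcacgcgccgCACGTgccacacgctcc
Ankrd37, 6 bases before the start, chr8:45999840-45999868, minus strand: cagtgtttgggtACGTGaggccgcagcgg
P4ha2, 78 bases before the start, chr11:54100834-54100862, plus strand: tgtgcatcgcatACGTGcagcgcgtggcg
In Hk2 and Bnip3 the core shown is in the reverse orientation, and in Bnip3 it forms the palindrome CACGTG. In Slc16a3, Ankrd37 and P4ha2 it runs with the gene, as in Egln3.

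Epas1 is not a neuronal marker, so the markers of the cell types such cultures can hold are given beside it. Of 11 tested astrocyte markers, 10 rose and the other, Ntsr2, had a positive value. Their median log2 fold change was 1.31 and Gja1 had the largest at 2.27, against 2.35 for Epas1, a difference that was not tested. The summed astrocyte level was 1754 to 2219 CPM in control and 3509 to 4257 CPM after *Neuid* KD, and Gjb6 was at 0 in some libraries. Slc1a2 made up much of the sum, at 1185 ± 100 against 1834 ± 212 CPM (SD, n = 6 each). In bulk RNA, fewer or more cells of a type and less or more RNA per cell cannot be told apart, and the part of astrocyte RNA in the level of Epas1 was not tested.

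Endothelial and mural cells are other cell types in which Epas1 is well known. The sums of different marker lists do not compare cell types, since 1 or a few abundant genes can hold much of a sum. Epas1 itself was at 6.01 to 8.93 CPM in control and 35.7 to 42.6 CPM after *Neuid* KD. The part of endothelial and mural RNA in its level was not tested. Of 12 endothelial markers 7 could be tested and 0 were called by edgeR or by DESeq2 or had an unadjusted p under 0.05. They summed to between 7.82 and 26.0 CPM in control and between 6.78 and 24.9 CPM after *Neuid* KD, and Cldn5, Cdh5, Emcn, Ly6c1, Tie1, Erg and Sox17 were at 0 in some libraries. Kdr, at 7.40 ± 1.63 against 7.36 ± 1.33 CPM (SD, n = 6 each), made up much of the sum. Of 9 tested mural markers, Notch3 alone rose (6.80 ± 1.01 to 16.9 ± 1.36 CPM, SD, n = 6 each; log2 fold change 1.31, adjusted p = 1.82e-08), with the list between 26.1 and 41.5 CPM in control and between 35.1 and 55.0 CPM after *Neuid* KD. Notch3 is part of that sum, and the median log2 fold change of the list was -0.12. Kcnj8, Abcc9 and Anpep were at 0 in some libraries.

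Of 8 tested markers of oligodendrocyte precursors 4 rose, Olig2, Olig1, Lhfpl3 and Vcan (log2 fold changes 1.67, 1.47, 0.54 and 0.31). The other 4 were not called, at 0.44 for Pdgfra (adjusted p = 0.223), 0.09 for Sox10, -0.05 for C1ql1 and -0.77 for Gpr17. The sum of the list was at most 155 CPM in control and at least 294 CPM after *Neuid* KD. Olig1 made up much of it, at 78.2 ± 8.49 against 216 ± 11.7 CPM (SD, n = 6 each). Vcan was at 40.1 ± 1.34 against 49.4 ± 5.66 CPM. Of the microglia markers 4 could be tested and 0 were called by edgeR or by DESeq2 or had an unadjusted p under 0.05, with sums from 12.8 to 20.5 CPM over all libraries. Of the 10 neuron markers, 0 were called by edgeR or by DESeq2, and 1, Rbfox3, had an unadjusted p under 0.05 (log2 fold change 0.16). Their sum was 6392 to 7483 CPM in control and 6292 to 7479 CPM after *Neuid* KD. The part of these cell types in the values of the HIF genes was not tested.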

How the data were processed

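Primary hippocampal neurons of mice received control or *Neuid* gapmers, and 6 libraries per group were made with a stranded total RNA kit. The authors aligned reads with STAR to mm10 and counted them per gene with featureCounts, and the deposited values are raw counts per gene. Of 55471 genes, 55144 were matched to GENCODE M21. Groups follow the labels. The HIF genes and the gene lists were chosen with earlier results of these data known.

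Counts were filtered with filterByExpr, scaled by TMM and tested with edgeR's quasi-likelihood test (version 4.0.16, R 4.3.3), group only, with Benjamini-Hochberg adjustment over all 19578 tested genes and a threshold of 0.05. The study's DESeq2 with RUVseq became alternatives (DESeq2 1.42.0), since its number of factors is not stated. Intervals are the estimate ± 1.96 standard errors at 95%. CPM used TMM library sizes, and log2 CPM a prior count of 2. Levels between genes were compared per kb of exon. Depth was 11152556 to 30914714 reads, and SEs reflect the spread between libraries. The test was checked on simulated counts. Named genes were the 10 genes of the set, *Neuid*, up to 3 called genes with the largest rise and fall in each pathway list, and the 5 genes with at least 1 CPM most like Epas1. Alternatives covered scaling, filter, RUVs, background, replicate block, GC and length, each library left out, a fold-change threshold of 0.5 (log2) and transcript length.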

Additional observations from a re-analysis of the deposited data

Results flagged for a closer look

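In 4 of 52 groups of 6 libraries examined, 1 library stood apart from the other 5 by Dixon's criterion, where chance flags about 1 in 20 groups. Arnt2 was at 124 CPM in *Neuid* KD replicate 1, against 140 to 146 CPM in the other 5. Egln2 was at 45.9 CPM in control replicate 6, against 33.8 to 37.4 CPM. Egln3 was at 2.98 CPM in *Neuid* KD replicate 6, against 5.64 to 6.46 CPM, and its log2 fold change without that library was -0.47. Slc40a1 was at 6.92 CPM in control replicate 1, against 4.53 to 5.42 CPM. The cause of these values was not tested.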

How the results depend on the processing

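The log2 fold change of Epas1 stayed between 2.28 and 2.42 over 22 alternatives, and that of *Neuid* between -1.93 and -1.74. Of 198 values for the other 9 genes, 154 kept direction and side of the threshold, 16 lost the call, 11 gained it and 17 turned sign. Arnt2 turned to -0.00955 with DESeq2 size factors in edgeR, -0.0503 with upper-quartile normalization, -0.00339 with 1 RUVs factor, -0.000348 with the background covariate, -0.0764 in the libraries under 100 CPM of background and -0.0093 with DESeq2, and ran from -0.0358 to 0.0397 with each library left out. Egln1 turned to 0.0153 with GC and length offsets and ran from -0.0834 to 0.0134 with each library left out, and Egln2 turned to -0.0094 in the libraries of at least 100 CPM. The number of genes of the set called higher was 1 with DESeq2 size factors, no filter, GC and length offsets, either background side, or a log2 fold change above 0.5. It was 3 with the DESeq2 Wald test, 1 RUVs factor and the background covariate, and 1 to 3 with each library left out. Epas1, on which the set was chosen, is in each of these counts. The number called lower was 1 with 1 RUVs factor, the background covariate, the replicate block and the libraries of lower background, and 0 to 0 with each library left out. Targets called lower numbered 17 with upper-quartile normalization, 21 with 1 RUVs factor and with the background covariate, 5 with GC and length offsets, 25 in the libraries of lower background, 15 with DESeq2, and 8 to 14 with each library left out. Targets called higher numbered 1 with GC and length offsets or a log2 fold change above 0.5, and 2 to 2 with each library left out. The causes were not tested. GC and length offsets gave a median standard error of 0.197 against 0.114, and 396 genes higher and 103 lower over all genes. No filter left 711 and 229 calls, RUVs gave 1757 and 988, the background covariate 1776 and 987, and the lower-background libraries 1110 and 799, and the higher-background libraries 651 and 205.

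No label says whether same-numbered libraries were paired. The deviations of same-numbered libraries correlated at -0.637 to 0.774, with 2 of 6 above 0.1, and 2 of 6 libraries correlated best with their own number. These were numbers 1 and 3 (0.774 and 0.751), whose control and *Neuid* KD libraries also had like background (667 and 616 CPM, 26.7 and 27.1 CPM). Pairing and background therefore cannot be told apart in these correlations. With the replicate block, 3 genes of the set, Epas1 among them, were called higher and 1 lower. Those gained by edgeR's test were Hif1a (adjusted p = 0.0249) and Egln3 (adjusted p = 0.0187). In that fit 15 targets were lower and 2 higher, and over all genes 1299 were higher and 542 lower. Hif3a had 20 to 61 reads per library.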
